A study of Mus musculus with 8 samples.

Results

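The cytosolic ribosomal protein genes were examined in skeletal cells sorted from the healing femur of the mouse. Members were the probe sets whose annotation gave a single gene symbol, that symbol being a cytosolic ribosomal protein of the Rpl or Rps series, Rpsa, Rplp0, Rplp1 or Rplp2. A total of 95 of 45101 probe sets on the Affymetrix mouse array met this rule. They represented 43 of 18193 genes named in this way, of which 22 code for proteins of the large subunit (42 probe sets) and 21 for proteins of the small subunit (53 probe sets). The annotation puts a ribosomal protein symbol beside other symbols for a further 110 probe sets, and 27 ribosomal protein genes were found only there, among them Rplp1 and Rpl5. These were kept out of the members and are given for comparison.

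RNA came from fracture calluses of male C57/Bl6 mice aged 10 to 12 weeks, which the labels place at day 7 after fracture, whereas the study's methods name a later day. SSCs, the skeletal stem cells at the top of the bone and cartilage lineage, were sorted as CD51+ CD200+ and negative for CD105. BCSPs, the bone, cartilage and stroma progenitors below them, were CD51+ and CD105+, with no CD200 gate named. Both lacked Thy1, 6C3, Tie2, Ter119 and CD45. The labels name no transgene and no drug for these 8 samples. Each of experiments 1 to 4 gave 1 SSC and 1 BCSP array of 10000 sorted cells, so n = 4 arrays per population.

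Ribosomal proteins join the ribosomal RNAs to form the small subunit, which decodes the mRNA, and the large subunit, which forms the peptide bond. Every growing cell makes them in matched amounts, and their mRNAs are among the most abundant in most tissues. Many of these mRNAs begin with a C and a run of pyrimidines, the terminal oligopyrimidine tract, through which the kinase mTOR controls their translation.

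Levels were read on the activity score of Gene Expression Commons, which places each array on the distribution of that probe set over a large public reference. The score runs from about -100 to +100, with 0 at the threshold between low and high values of that probe set, and all differences are therefore in points of the score and not folds. A ubiquitous mRNA is high in most reference arrays as well, so the score ranks a sample against other tissues and does not rank mRNAs by abundance. On every array, 7 of 7 measured skeletal marker genes scored above 0, including the collagen and Sox9 genes of bone and cartilage, whereas none of the macrophage (4), neutrophil (3), lymphocyte (3), erythroid (3), endothelial (4) or muscle (4) markers did so on all arrays. Eng, which encodes the sorting antigen CD105, ranged from -64.4 to -29.4 on the SSC arrays and from -1.02 to 50.1 on the BCSP arrays for probe set 1432176_a_at, and the groups did not overlap. Its probe set 1417271_a_at was below 0 on every array, from -87.3 to -64.7 in SSCs and from -54.6 to -12.0 in BCSPs, also without overlap.

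The start sites of the member genes were searched for the pyrimidine tract with which many of these mRNAs begin. RefSeq start sites were at hand for 38 of the 43 genes (44 starts). A C at the first base followed by at least 4 bases that are C or T was found at 8 of 44 starts (18.2%), against 2.51% of 32851 RefSeq promoters of all genes, read on the sense strand of each gene. When the C could lie up to 5 bases from the start, the tract was found at 19 starts (43.2%), against 18.3% of all promoters. The 8 starts with the tract at the first base follow as windows of 30 bases (10 before the start and 20 from it on; RefSeq, GRCm38.p6), in lower case with the tract in capitals.
Rpl14 (chr9:120571507-120571536, + strand): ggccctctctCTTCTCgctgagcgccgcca
Rpl35 (chr2:39005112-39005141, - strand): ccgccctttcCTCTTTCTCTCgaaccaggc
Rpl38 (chr11:114668570-114668599, + strand): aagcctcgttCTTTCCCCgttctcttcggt
Rplp2 (chr7:141447641-141447670, + strand): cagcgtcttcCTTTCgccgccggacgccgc
Rps6 (chr4:86857348-86857377, - strand): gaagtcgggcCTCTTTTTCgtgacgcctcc
Rps10 (chr17:27635225-27635254, - strand): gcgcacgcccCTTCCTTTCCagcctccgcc
Rps18 (chr17:33955646-33955675, - strand): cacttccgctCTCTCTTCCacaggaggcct
Rps27 (chr3:90213629-90213658, - strand): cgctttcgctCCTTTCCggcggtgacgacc

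The tract ran from 5 bases in Rplp2 to 11 in Rpl35. The 24 probe sets of these 8 genes had mean scores from -66.2 (Rps18) to 84.8 (Rps6), with a median of 12.4, beside a median of 38.7 for the 37 probe sets of the 20 genes that had no tract within 5 bases of a start. Genes with the tract at the first base thus included the steadiest high scores of the family and its lowest score. Rps18, Rps10 and Rpl35 had 6 probe sets each, whose means spanned 139, 100 and 55.2 points. The median of 12.4 therefore rests mostly on these genes, and the levels were not compared gene by gene. A tract that does not meet this definition may still be present elsewhere, and the match is a description of the letters alone.

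As a family, ribosomal protein genes scored high. Over all arrays, 73.8% of the 95 probe sets' values lay above 0, and 54 of the 95 probe sets (56.8%) were above 0 on all 8 arrays, against 16.1% of all probe sets. Another 32 were above 0 on some arrays and 9 on none. The median of the members' mean scores was 25.8, against -31.1 for all probe sets.

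The level was far from uniform. Means over 8 arrays ran from -66.2 to 87.5, with quartiles at -2.53 and 49.9, and their SD between probe sets was 36.9 points (47.5 points over all probe sets). A total of 25 probe sets had a mean below 0, 46 lay between 0 and 50, and 24 lay above 50. The median was 31.9 for the large subunit and 24.7 for the small subunit, which held the highest and the lowest scores of the family.

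**Figure D1:**
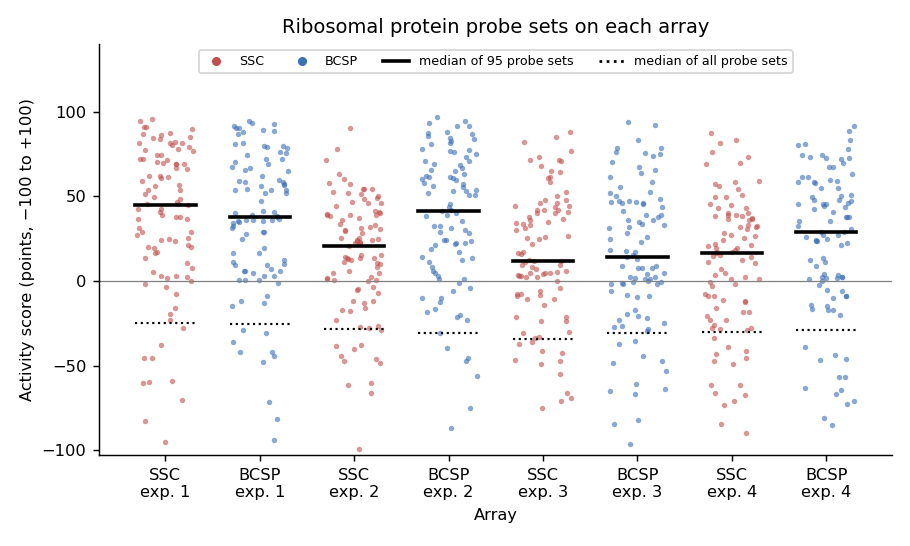
Activity score (vertical axis, points) of the 95 ribosomal protein probe sets on each of the 8 arrays, SSC in red and BCSP in blue, grouped by experiment; solid lines mark the median of the 95 and dotted lines the median of all probe sets, and the sideways scatter of the points carries no value. The solid line lies above 0 on every array, from 11.9 (SSC, experiment 3) to 45.1 (SSC, experiment 1), while the dotted line stays between -34.2 and -24.8.

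Among the highest scores were those of Rps28, Rps6, Rps2, Rps4x and Rps18, all of the small subunit. Rps28, a small protein near the mRNA exit, scored 90.7, 60.1, 84.8 and 87.6 on the SSC arrays of experiments 1 to 4 and 94.3, 97.0, 94.2 and 91.7 on the BCSP arrays (probe set 1451101_a_at). Rps6, the substrate of the S6 kinases below mTOR, scored 86.1, 78.0, 87.7 and 83.4 in SSCs and 88.0, 78.0, 83.2 and 81.0 in BCSPs for probe set 1416142_at. This was the smallest SD over arrays of any member (3.98 points), and the ranges of the populations overlapped almost fully. A second probe set of Rps6, 1453466_at, had a mean of 84.8 and varied more, from 69.1 to 93.4. Rps2, which lines the mRNA entry channel, had a mean of 79.2 ± 10.8 (SD over 8 arrays). Rps4x, the X-linked form of a small subunit protein, had a mean of 74.8 ± 17.3 for probe set 1416276_a_at.

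In the large subunit, the highest mean was that of Rpl14 at 64.0 ± 5.88, with array values between 54.9 and 71.9. It was also among the 3 members with the smallest SD, together with Rps6 and Rps29. Rps29, a zinc-binding protein of the small subunit, was steady at a lower score of 14.7 ± 7.84 (probe set 1415833_x_at).

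Proteins with known roles beyond the core of the ribosome lay mostly in the middle of the family. Rplp0, the base of the stalk that recruits elongation factors, scored 76.9, 46.6, 17.2 and 39.2 in SSCs of experiments 1 to 4 and 65.7, 87.8, 13.0 and 27.3 in BCSPs. Rplp2, which completes the stalk with Rplp1, scored 56.9, 23.6, 2.73 and 31.8 in SSCs and 37.9, 61.2, 7.55 and 44.0 in BCSPs. Both arrays of experiment 3 were the lowest of their population for these genes, and the populations overlapped. Rpl11, which binds Mdm2 when ribosome assembly fails, had a mean of 56.1 ± 15.6 (SD over 8 arrays). Rps19, the gene most often mutated in Diamond-Blackfan anaemia, had a mean of 28.5 ± 15.3. Rpl38, known from mice with altered patterning of the axial skeleton, had a mean of 19.7 ± 13.4. These 3 genes were above 0 on all arrays with their single probe set. Rpl13a, which also takes part in silencing of inflammatory mRNAs, was measured by 4 probe sets with means between 25.6 and 52.9. Of the genes to be named in any case, Rplp1, Rpl5 and Rps27a had no probe set of their own under the rule.

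The lowest scores belonged to probe sets of Rps18, Rps16, Rps3, Rpl35 and Rps10. Rps16, whose tail reaches the decoding site, had only 1 probe set, which stayed between -99.1 and -42.1 on all arrays. It was 1 of 5 genes, with Rps27, Rps26, Rpl4 and Rpl39, whose means all lay below 0. Rps27, of the small subunit and with a tract at its start, had a mean of -39.1 and exceeded 0 on 1 array, the BCSP array of experiment 2 (22.2). For each of these 5 genes a single probe set was available.

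For genes with more probe sets, the probe sets often disagreed. Of the 43 genes, 33 had at least 1 probe set above 0 on all 8 arrays. Among 22 genes with several probe sets, the means of a gene's probe sets spanned a median of 31.5 points and more than 50 points in 9 genes, and in 12 genes they lay on both sides of 0. Rps18, at the head of the small subunit, showed the widest span. Its probe sets 1455572_x_at, 1435712_a_at and 1448739_x_at had means of 72.8, 66.6 and 65.1, and 1450390_x_at, 1421837_at and 1421838_at had means of -37.6, -48.8 and -66.2. The first 3 were above 0 on all arrays and the other 3 on none.

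The same held for Rps10, Rps9 and Rps3. The 6 probe sets of Rps10 ran from a mean of -49.5 (1436384_at) to 50.5 (1439374_x_at). Rps9 had means of 68.6 (1434624_x_at), 3.57 (1433689_s_at) and -32.9 (1426958_at). Rps3, which sits at the mRNA entry, had means of 38.7 (1455600_at), 23.0 (1435151_a_at) and -60.5 (1447563_at). The median span of 31.5 points between probe sets of a gene lay beside a median range of 37.5 points between a member's experiment means.

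The kind of probe set went with the level. Probe sets with the plain suffix _at, designed to match 1 transcript, had a median of 3.10 (28 probe sets, of which 12 were above 0 on all arrays) and held 8 of the 9 members that were never above 0. Probe sets designed to match several transcripts of a gene (_a_at) had a median of 30.9 (26), and those whose probes may bind unrelated transcripts (_x_at) had a median of 31.9 (38). Over all probe sets of the array the medians were -33.0 for _at, -23.7 for _a_at and -12.2 for _x_at. The part of shared sequence, including that of processed pseudogenes, in these levels was not tested. The 110 probe sets that list another symbol too had a median of 32.2, and 63 of them (57.3%) were above 0 on all arrays.

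**Figure D2:**
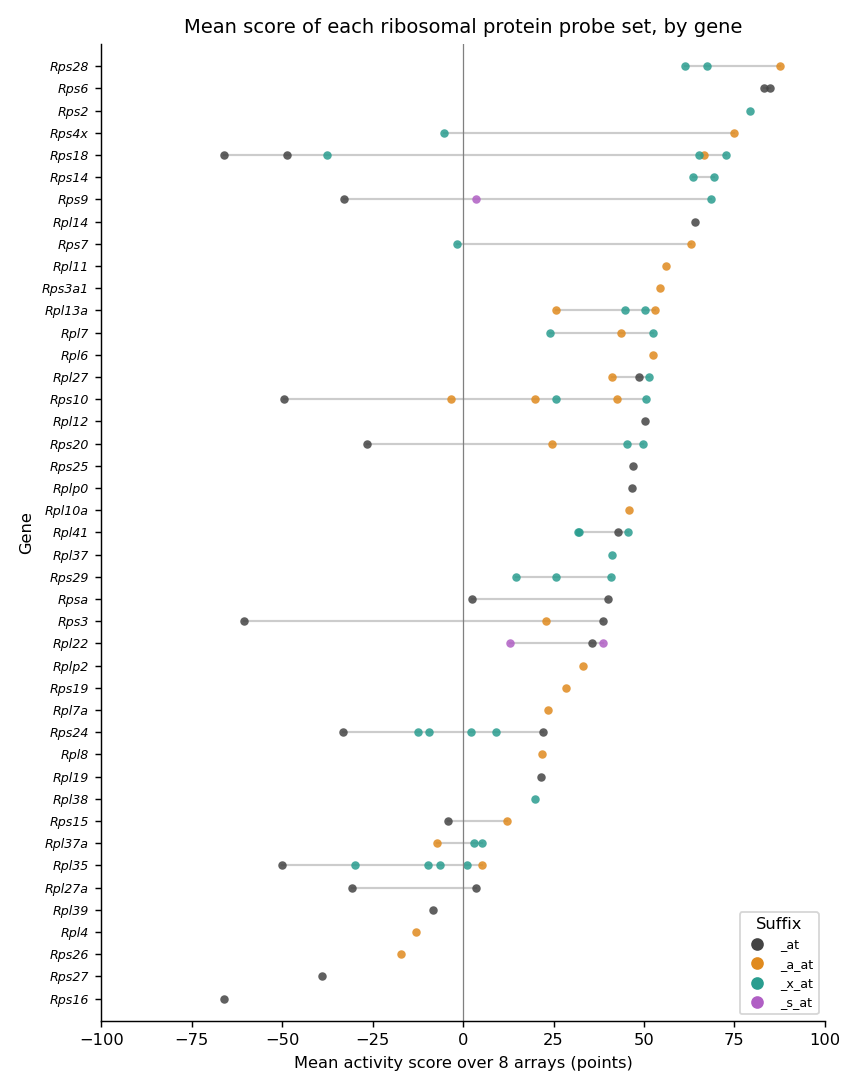
Mean activity score over 8 arrays (horizontal axis, points) of each ribosomal protein probe set, 1 row per gene ordered by its highest mean, with points coloured by the suffix of the probe set and grey lines joining the probe sets of a gene. Rps28 and Rps6 head the order, Rps18 spans the widest range (-66.2 to 72.8), and the 5 lowest rows are genes with a single probe set.

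Spread over the arrays was near that of all probe sets, but larger among probe sets above 0 on all 8 arrays. The median SD was 18.3 points for the members and 20.2 points for all probe sets, with a range among members of 3.98 to 60.2. Among probe sets above 0 on all 8 arrays, it was 17.2 points for the 54 members and 11.8 points for all 7238. These groups were not matched in level, with a median mean score of 46.8 for the 54 and 63.5 for the 7238, nearer the upper end of the score. The largest SD was that of Rpl37a, a zinc-binding protein of the large subunit, whose probe set 1416218_x_at scored 45.1, 22.4, 40.6 and -66.1 in SSCs of experiments 1 to 4 and -35.9, 86.8, -84.4 and 32.7 in BCSPs. Neither experiment nor population ordered these values. Rps24 followed with an SD of 47.4 (1455195_at), then Rps7 with 43.7 (1435593_x_at), Rps4x with 43.6 (1420303_x_at) and Rpl35 with 43.5 (1454833_at). Each of these 5 probe sets had scores on both sides of 0. Rpsa, also known as the laminin receptor, was similar in 1 of its probe sets (1416196_at, -46.9 to 56.3) but above 0 throughout in the other (1448245_at, 19.4 to 65.7).

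Experiments differed in the level of the whole family. The median over members of the experiment means was 39.9 in experiment 1, 32.6 in experiment 2, 13.3 in experiment 3 and 22.5 in experiment 4, whereas that of all probe sets ran only from -34.3 to -27.0. For 68 of 95 members (71.6%) the highest experiment mean was that of experiment 1, against 34.3% of all probe sets, and for 47 (49.5%) the lowest was that of experiment 3, against 36.5%. Both arrays of experiment 1 exceeded both arrays of experiment 3 for 67 members (70.5%), against 34.8% of all probe sets, and the reverse held for 10 (10.5%), against 25.2%. The median difference between experiments 1 and 3 was 24.2 points for members and 5.03 points for all probe sets. Among probe sets above 0 on all arrays, this difference was 27.7 points for the 54 members and -0.41 points for all 7238.

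No single member passed the test between experiments. With limma's moderated F-test, population being in the model, 0 of 95 members reached an adjusted p of 0.05, against 0.995% of all probe sets (448 of 45037). At an unadjusted p of 0.05, 32 members (33.7%) passed, against 24.9% of all. The experiment accounted for a median of 67.4% of a member's variance (62.2% over all probe sets) and the population for 6.98% (4.94%). These are raw shares of the sum of squares. Experiment has more levels than population and takes a larger share of random spread too, so its share cannot be compared directly with that of population. Only 2 arrays stood behind each experiment mean.

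The lowest adjusted p was 0.057, for Rps10 (1439374_x_at), which scored 79.0, 39.7, 34.4 and 14.8 in SSCs of experiments 1 to 4 and 90.3, 55.8, 45.8 and 44.5 in BCSPs. In each population experiment 1 was the highest for this probe set. Rpl7, near the 5S RNA of the large subunit, followed (1426163_x_at; 69.4, 38.8, 25.0 and 18.1 in SSCs; 89.2, 69.1, 70.3 and 40.7 in BCSPs; adjusted p 0.079). Rpl22, a large subunit protein needed for T cell development, scored 61.6, 30.6, 4.06 and 24.3 in SSCs and 79.7, 29.0, 1.82 and 55.0 in BCSPs (1416603_at, adjusted p 0.085). Experiment 3 was the lowest for Rpl22 in both populations. Rps14, the gene lost in the 5q- syndrome, scored 84.4, 57.4, 42.0 and 40.4 in SSCs and 87.0, 81.3, 48.3 and 67.5 in BCSPs (1436586_x_at, adjusted p 0.090). Another Rps10 probe set (1434854_a_at, adjusted p 0.089) ran the same way by its experiment means, from 78.7 in experiment 1 to 12.5 in experiment 4. Among its BCSP arrays, however, that of experiment 2 was the highest (82.9, against 76.1 in experiment 1).

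Rps24 ran the other way in 1 of its 6 probe sets. Its probe set 1455195_at scored -19.2 (SSC) and -42.0 (BCSP) in experiment 1, and 82.2 and 78.3 in experiment 3 (adjusted p 0.086). The other 5 probe sets of Rps24 had experiment 1 means between -6.34 and 20.1 and experiment 3 means between -63.3 and 14.7, lower in experiment 3 for each of them. The probe sets of this gene, which is also mutated in Diamond-Blackfan anaemia, therefore ordered the experiments differently.

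**Figure D3:**
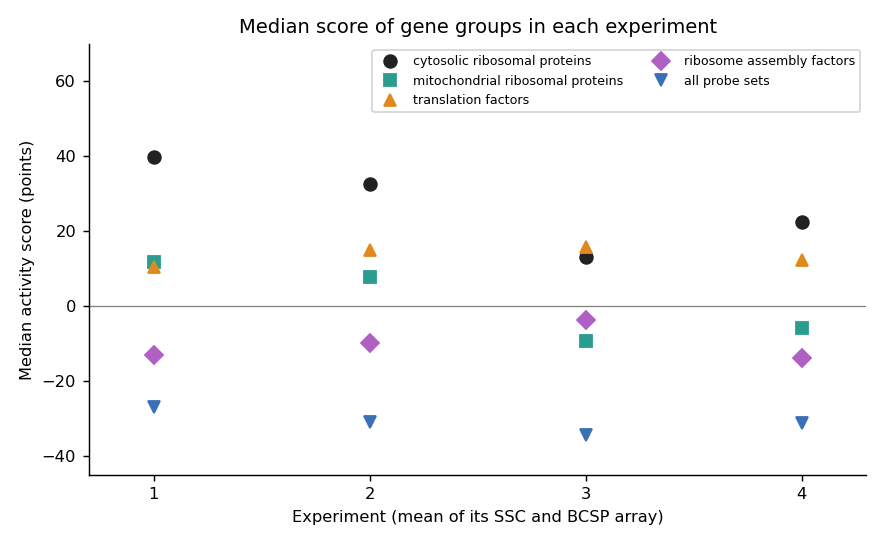
Median activity score (vertical axis, points) of 5 groups of probe sets in experiments 1 to 4, each probe set being averaged over the SSC and BCSP array of the experiment. Cytosolic ribosomal proteins are highest in experiment 1 (39.9) and lowest in experiment 3 (13.3), mitochondrial ribosomal proteins also lie lower in experiment 3 (-9.17) than in experiment 1 (11.9), and the medians of translation factors and assembly factors are highest in experiment 3 (15.9 and -3.76).

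Quality measures moved with the experiment as well. The 3' control probe set of 18S rRNA scored 82.6 (SSC) and 83.7 (BCSP) in experiment 1 but 6.06 and 9.89 in experiment 3, and lay at 64.1 and 51.2 in experiment 2 and 59.9 and -1.11 in experiment 4. The 3' minus 5' difference of the actin controls, which grows as the 5' ends of transcripts are lost, was 59.6 and 64.9 points in experiment 3 and 23.1 to 44.2 points on the other arrays. For Gapdh this difference was 21.3 and 21.6 points in experiment 1 and 25.9 and 44.2 in experiment 2. It was 54.7 and 49.1 points in experiment 3 and 53.9 and 71.9 in experiment 4. The median of 9 hybridization control probe sets was 62.5 (SSC) and 70.9 (BCSP) in experiment 1 and 32.4 and 41.8 in experiment 3. By these controls experiment 2 was the lowest (-24.2 and -13.4), with -8.12 and 3.77 in experiment 4. The part of these measures in the ribosomal protein levels was not tested, and each experiment gave 1 array per population, so mice, sort and array handling cannot be told apart.

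**Figure D4:**
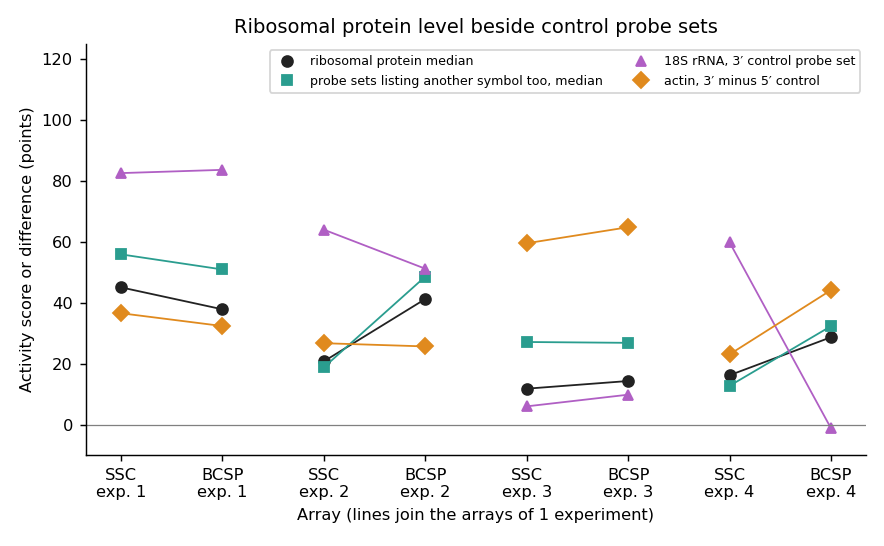
Median score of the 95 ribosomal protein probe sets, median of the 110 probe sets that list another symbol too, score of the 3' control probe set of 18S rRNA, and 3' minus 5' difference of the actin control (vertical axis, points) on each array, with lines joining the arrays of 1 experiment. Experiment 3 has the lowest ribosomal protein medians within each population (11.9 and 14.4) and the largest actin differences (59.6 and 64.9), and in experiment 4 the 18S score is -1.11 on the BCSP array while the ribosomal protein median is 28.8.

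Between the populations, most members had a lower mean in SSCs, but none passed the test. The SSC mean was below the BCSP mean for 84 of 95 members (88.4%), against 53.0% of all probe sets. Among probe sets above 0 on all arrays, this held for 51 of the 54 members (94.4%) and for 62.4% of all 7238. The median was 21.4 in SSCs and 31.5 in BCSPs, and the median difference, SSC minus BCSP, was -8.85 points, against -0.61 points over all probe sets. By limma 0 of 95 members were called, against 0% of all probe sets (0 of 45037), and every member had an adjusted p of 1. At an unadjusted p of 0.05, 0 members passed against 2.4% of all. The methods' t-test also called 0 members and 0 of all, with 0 members at an unadjusted p of 0.05. In this fit, which had no block for the experiment, the 95% interval of a member's difference extended a median of 31.6 points to each side. It held 0 for all 95. With 4 arrays per population, differences smaller than that could be missed by this fit.

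The difference lay in experiments 2 and 4. Within experiments the median difference of the members was 2.66, -21.8, 0.36 and -14.2 points in experiments 1 to 4, and the number of members lower in SSCs was 32, 83, 45 and 75 of 95. Over all probe sets these medians lay between -1.30 and 0.84. Only 10 members (10.5%) were lower in SSCs in all 4 experiments, against 7.24% of all probe sets, and 2 were higher in all 4, against 5.48%. Single libraries moved the median difference by more than 1.5 times while its sign held: it was -14.4 points without the SSC array of experiment 1, -5.42 without that of experiment 4, -4.98 without the BCSP array of experiment 2, -13.3 without that of experiment 3, and -4.40 without both arrays of experiment 2.

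In experiment 2, where the gap was widest, the SSC array had a member median of 20.8 and the BCSP array one of 41.3. In experiment 4 these values were 16.3 and 28.8. The 110 probe sets that list another symbol too showed the same order, with differences of 4.54, -27.6, -0.68 and -15.0 points in experiments 1 to 4. Some control probe sets also differed between the populations in these experiments. The 3' minus 5' difference of Gapdh was 25.9 points in SSCs and 44.2 in BCSPs in experiment 2, and 53.9 and 71.9 in experiment 4, while it was 21.3 and 21.6 in experiment 1 and 54.7 and 49.1 in experiment 3. For actin it was 26.8 and 25.7 points in experiment 2 and 23.1 and 44.2 in experiment 4. The 18S score was 64.1 in SSCs and 51.2 in BCSPs in experiment 2 and 59.9 and -1.11 in experiment 4. The part of these measures in the result was not tested.

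**Figure D5:**
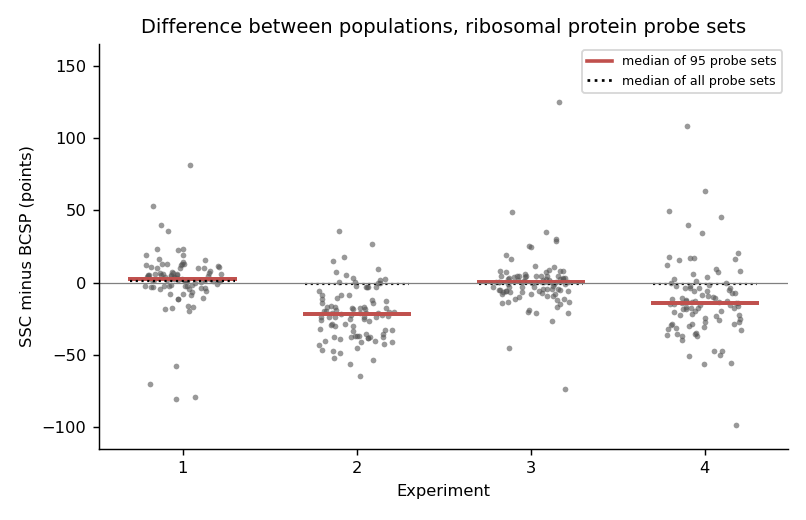
Difference in activity score between the SSC and the BCSP array of each experiment (vertical axis, points) for the 95 ribosomal protein probe sets, with red lines at their median and dotted lines at the median of all probe sets; the sideways scatter carries no value. The members centre near 0 in experiments 1 (2.66) and 3 (0.36) and lie mostly below 0 in experiments 2 (-21.8) and 4 (-14.2).

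Rps28 was the only member whose SSC arrays all lay below its BCSP arrays, against 0.773% of all probe sets. No member had the reverse order, against 0.653%. The arrays of probe set 1451101_a_at, given above, ran from 60.1 to 90.7 in SSCs and from 91.7 to 97.0 in BCSPs, a difference of -13.5 points (95% interval -27.2 to 0.21). Without the SSC array of experiment 2 the difference was -6.59 points, and without both arrays of that experiment -5.68. Its probe set 1454778_x_at scored 84.8, 48.4, 52.5 and 49.8 in SSCs and 78.3, 85.5, 67.0 and 74.1 in BCSPs, where the groups overlapped through experiment 1; its difference was -17.4 points, and -10.8 without experiment 2. Rpl7 had the largest statistic toward BCSPs (1426163_x_at, -29.5 points, interval -59.3 to 0.31). Its array values, given above, were lower in SSCs in every experiment. The other probe sets of Rpl7 had smaller differences, -6.70 (1415979_x_at) and -9.10 points (1426162_a_at). Both were higher in SSCs in experiments 1 and 3. The fourth was Rps6 with 1453466_at, at 89.6, 90.4, 71.4 and 69.1 in SSCs and 88.8, 93.4, 92.3 and 83.1 in BCSPs, a difference of -9.28 points that was -5.61 without the SSC array of experiment 4 and -5.42 without experiment 3. Its second probe set, 1416142_at, differed by 1.30 points in the other direction (interval -6.46 to 9.05).

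Of the 4 members with the largest statistics toward SSCs, Rps3, Rpl39 and Rpl4 had means below 0 and Rpl22 had a mean of 12.9. Rps3 probe set 1447563_at was below 0 on every array, at -59.4, -47.1, -71.0 and -23.3 in SSCs and -71.7, -56.5, -82.3 and -72.6 in BCSPs, a difference of 20.6 points that was 11.6 without the SSC array of experiment 4. The other probe sets of Rps3 differed in the other direction, by -14.5 (1435151_a_at) and -1.445 points (1455600_at). Rpl22 probe set 1448398_s_at differed by 27.0 points (interval -28.3 to 82.4), through the BCSP array of experiment 4 at -70.8, where the other 3 BCSP arrays lay between 1.07 and 57.9. Without that array the difference was 3.61 points, and without both arrays of experiment 4 it was -0.04. The other probe sets of Rpl22 did not share this, with differences of -11.3 (1416603_at) and -15.1 points (1453118_s_at). Rpl39 and Rpl4, both at the peptide exit tunnel, differed by 15.3 points each, with intervals of -27.9 to 58.6 and -31.7 to 62.4. Like Rps3 (1447563_at), Rpl39 was higher in SSCs in every experiment, by 39.5, 14.6, 0.36 and 6.96 points in experiments 1 to 4. Its difference was still 7.30 points once both arrays of experiment 1 were dropped. Dropping only the SSC array of that experiment gave -0.05 points, but left its BCSP array unpaired. The direction of Rpl4 rested on few arrays. Its difference fell to 1.07 points when the experiment 4 BCSP array was dropped, and turned to -0.57 points when the SSC array of that experiment was dropped too.

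With the experiment as a block, 0 members were called and 0% of all probe sets, and the lowest adjusted p among members was 0.933. At an unadjusted p of 0.05, 5 members (5.26%) passed, all lower in SSCs, against 5.04% of all probe sets. They were probe sets of Rpl7 (1426163_x_at), Rps10 (1439374_x_at), Rps14 (1436586_x_at), Rps28 (1454778_x_at) and Rps7 (1419364_a_at).

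Genes related to the ribosome were set beside the family. The paralogs of ribosomal proteins had a higher median, 42.5, with 8 of 10 probe sets above 0 on all arrays. Rpl39l, the paralog of Rpl39 best known from the testis, scored 66.5, 64.2, 58.6 and 64.1 in SSCs and 69.7, 70.8, 60.2 and 71.5 in BCSPs, while Rpl39 itself had a mean of -8.38. Rpl7l1 had means of 65.4 and 61.1 in its 2 named probe sets, Rps4l one of 61.0, and Rps27l, a p53 target, one of 29.0. Fau, which codes for the small subunit protein Rps30 fused to a ubiquitin-like protein, had a mean of 4.53 and was called in no test, with experiment means of 24.6 in experiment 1 and -36.7 in experiment 3.

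The 156 probe sets of 76 mitochondrial ribosomal protein genes had a median of 2.58, and 43 (27.6%) were above 0 on all arrays. Like the cytosolic family they were lower in experiment 3 than in experiment 1, by a median of 21.7 points, and their differences between populations were 1.62, -13.5, 1.23 and -7.53 points in experiments 1 to 4. The 142 probe sets of ribosome assembly factors had a median of -7.50 and differed by -6.85 points between experiments 1 and 3. Translation factors (114 probe sets, median 12.2) and RNA polymerase I genes (41, median -2.98) differed by 4.72 and 7.06 points. In experiment 2 these lists too had a median difference between populations below 0, at -15.5 points for translation factors, -10.2 for RNA polymerase I and -9.36 for assembly factors. In experiment 4 these values were -2.56, -6.71 and -0.57 points, and in experiments 1 and 3 all of them lay between -1.06 and 3.70. Members of the mTOR and Myc list lay near the level of all probe sets (55 probe sets, median -27.1, against -31.1). Of them 16.4% were above 0 on all arrays, against 16.1% of all probe sets.

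In these lists 0 probe sets were called between populations. Between experiments 4 mitochondrial ribosomal (2.56%), 2 translation factor (1.75%), 2 RNA polymerase I (4.88%) and 1 assembly (0.70%) probe sets were called, against 0.995% of all. The largest population statistics were those of Heatr1, a factor of rRNA transcription and processing (34.8 points higher in SSCs, scores -79.2 to -44.0 against -97.8 to -92.3), Etf1, the release factor that ends translation (-42.3 points) and Taf1d, of the polymerase I initiation complex (-36.1 points). Each had an adjusted p of 1 and a score below 0 on every array. Among the highest scores of the lists were Eif4g2, a scaffold of translation initiation (92.5), Ltv1, which assembles the small subunit (84.9), Rheb, the activator of mTOR (87.4), and Mrpl27 of the mitochondrial large subunit (94.3), each above 0 on all arrays.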

How the data were processed

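The authors amplified RNA of sorted cells, hybridized it to Affymetrix mouse arrays and used Gene Expression Commons for normalization. The deposited values are its activity score per probe set (-100.03 to 100); how probes were summarised is not stated in those sources. For 1 BCSP array the title and the description number it differently, and the description was followed. Probe sets were named from the platform annotation; 64 controls were left out of tests. SSCs and BCSPs were compared on the score with limma 3.58.1 in R 4.3.3 (eBayes with trend, no block, all 45037 probe sets, Benjamini-Hochberg, threshold 0.05). Experiments were compared with its moderated F-test, population in the model. Same-numbered arrays deviated together (r of 0.394, 0.164, 0.605 and 0.173 over all probe sets in experiments 1 to 4; over the members 0.443, 0.427, 0.632 and -0.044, so not in experiment 4), so the labels' experiments pair the arrays, and a blocked fit was run. Precision is limited by the number of arrays. Members and lists were chosen with earlier results of these data known. Members named were those with the 6 highest and 6 lowest means, 5 largest and 3 smallest SDs, 4 largest statistics each way between populations, 6 largest F values, 4 genes whose probe sets differ most, and 13 fixed genes. Both fits were tested on simulated scores of 45037 probe sets: a shift of 80 points between populations was recovered in 34% of probe sets, and 1 of 20 points in 0%. A shift of 80 points in experiment 1 was recovered in 10%.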

Additional observations from a re-analysis of the deposited data

Results flagged for a closer look

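On 4 occasions 1 array stood apart from the other 3 arrays of its population for a named probe set, by Dixon's criterion (gap to the nearest array over the range of the 4). Of 104 such groups of 4 arrays tested, chance would set apart about 1 in 20. Rps28 (1454778_x_at) scored 84.8 on the SSC array of experiment 1, against 48.4 to 52.5 on the other SSC arrays. Rps3 (1455600_at) scored 54.0 on the same array, against 31.3 to 33.8. Rps9 (1426958_at) scored 6.16 on the SSC array of experiment 3, against -48.8 to -45.6. Rps18 (1450390_x_at) scored -85.1 on the BCSP array of experiment 4, against -24.7 to -12.8.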

How the results depend on the processing

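No member was called between SSCs and BCSPs under any of 29 alternatives, the replicate block (0 members) and its pairings with quantile normalization, centring and an inverse normal scale included. Between experiments, 1 member was called with quantile normalization, with the inverse normal scale and among probe sets above 0 on at least 1 array, in each case Rps10 (1439374_x_at), and 0 under the other 21 alternatives, where the number of calls among all probe sets ran from 0 to 1668 over all 24. Taking the highest probe set of a gene put 86.0% of values above 0 with a median score of 45.6, and keeping only _at probe sets put 52.2% above 0 with a median of 3.10. Leaving out 1 array gave 72.3% to 75.3% of values above 0, medians of 24.0 to 29.0, and a median difference of -14.4 to -4.98 points. Leaving out both arrays of an experiment gave 70.5% to 76.0%, medians of 24.1 to 32.6 and differences of -13.0 to -4.40. The median share of variance between experiments was 78.9% for _at probe sets, 63.9% to 83.1% without 1 array and 49.4% to 80.8% without an experiment, the lowest without experiment 1. The share of members lower in SSCs ran from 70.5% to 89.5% and that above 0 on every array from 42.9% to 76.7% over 20 alternatives, which were chosen after seeing the data, as was adding the probe sets of several symbols. Of 197 alternatives for the 8 members named between populations, 3 turned the direction: Rpl22 (1448398_s_at) and Rpl4 (1425183_a_at) to -0.04 and -0.57 points without experiment 4, and Rpl39 (1423032_at) to -0.05 points without SSC replicate 1, while leaving out other arrays took these up to 46.5, 28.5 and 27.5 points. The cause was not tested. No population difference in points was computed on the inverse normal scale.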
